A study of Mus musculus with 46 samples.

Results

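Saa1, Saa2, Saa3, Lcn2 and Hp are 5 genes of the acute phase response, here followed across 8 engineered mouse models of mammary cancer and normal mammary glands. They are 5 of the 9329 genes tested on the array. The genes were selected on the deposited log2 values of this series, with earlier results in view, and each was read from the annotated probe set with the highest mean over all 46 arrays, so that choice of probe set is no finding and the levels are first of all a description. For the same reason the p-values below, from fits over all genes, are not independent support for a pattern. They set a difference against the spread between mice within groups, pooled over all 9 groups. Where models are pooled into a class, they use the spread between tumors within the classes. A model with little spread is thus judged by the spread of all groups. For Saa1 the group SDs ran from 0.09 (MMTV-Hras) to 5.45 (MMTV-C-Myc). Probe sets annotated to the 5 genes numbered 6 of 18586, with a pair for Saa1 and a single one for each of the others, and all 5 genes passed the filter on low values (log2 over 4 in at least 3 arrays).

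Total RNA of each tumor or gland, from an individual mouse, was hybridized to 1 array. Tumors of the C3TAg model (n = 5, FVB strain) carry SV40 T antigens under the 5' flanking region of the rat prostatic steroid binding protein gene C3(1). MMTV-C-Myc (n = 4), MMTV-H2N (Her2/neu, n = 5), MMTV-Hras (n = 5), MMTV-Wnt (n = 4) and MMTV-PymT (polyoma middle T, n = 6) tumors, all FVB, carry an oncogene under the mouse mammary tumor virus promoter, which is also active outside the mammary epithelium, for example in salivary and lymphoid tissue. The p53-/- tumors (n = 7, Balb/C) grew from transplanted gland in which MMTV-cre deletes floxed p53, and the Brca1-/-p53+/- tumors (n = 5, 129B6/FVB) from glands in which MMTV-cre deletes floxed BRCA1 in mice with a single p53 allele. FVB pregnant (n = 5) denotes normal glands of late-pregnant FVB mice, and no normal gland of another strain was analysed here. C3TAg, p53-/- and Brca1-/-p53+/- formed the basal-type class (17 tumors) and the 5 MMTV oncogene models the luminal-type class (24 tumors), so strain and class cannot be told apart in full.

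Acute phase proteins are plasma and secreted proteins whose production rises in inflammation, classically in hepatocytes, when interleukin-6 acts through STAT3 and interleukin-1 and TNF act through NF-kappaB, with C/EBP factors acting at many of their promoters. Serum amyloid A proteins (Saa1 and Saa2, the circulating forms made by liver, and Saa3, made mainly outside the liver in mice) are apolipoproteins carried on HDL that also recruit leukocytes. Lipocalin 2 (Lcn2) captures bacterial siderophores and is also abundant in mammary epithelium and neutrophils. Haptoglobin (Hp) binds free hemoglobin. In the mammary gland, serum amyloid A and lipocalin 2 are best known from involution and mastitis.

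Saa1 and Saa2 lie side by side on chromosome 7 and their upstream regions are shown because the probe sets of both genes moved together in these arrays, and those of Saa3 and Lcn2 are shown for comparison. Sequences are the 250 bases before the RefSeq transcript start on build GRCm38.p6, 5' to 3', from chr7:46742981-46743230 (minus strand) for Saa1, chr7:46751583-46751832 (plus strand) for Saa2, chr7:46715677-46715926 (minus strand, inside the annotated gene span) for Saa3 and chr2:32387740-32387989 (minus strand) for Lcn2. The Saa1 region also lies mostly inside its annotated gene span, which ends at chr7:46743181. Capitals mark matches, on either strand, to TTGCNNAA, a C/EBP-type motif.
Saa1: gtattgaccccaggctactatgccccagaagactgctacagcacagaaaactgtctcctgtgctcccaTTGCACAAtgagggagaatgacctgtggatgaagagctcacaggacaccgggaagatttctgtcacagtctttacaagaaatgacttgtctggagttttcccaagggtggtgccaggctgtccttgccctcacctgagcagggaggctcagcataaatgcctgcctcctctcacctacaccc
Saa2: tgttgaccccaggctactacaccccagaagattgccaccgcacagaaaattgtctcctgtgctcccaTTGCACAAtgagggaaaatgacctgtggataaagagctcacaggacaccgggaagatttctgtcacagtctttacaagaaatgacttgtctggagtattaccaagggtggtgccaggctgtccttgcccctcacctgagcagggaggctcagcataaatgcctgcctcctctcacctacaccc
Saa3: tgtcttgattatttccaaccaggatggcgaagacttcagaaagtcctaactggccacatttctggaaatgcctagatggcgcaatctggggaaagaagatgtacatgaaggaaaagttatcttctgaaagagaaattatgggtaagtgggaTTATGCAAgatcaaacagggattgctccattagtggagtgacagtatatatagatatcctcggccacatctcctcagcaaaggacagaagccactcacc
Lcn2: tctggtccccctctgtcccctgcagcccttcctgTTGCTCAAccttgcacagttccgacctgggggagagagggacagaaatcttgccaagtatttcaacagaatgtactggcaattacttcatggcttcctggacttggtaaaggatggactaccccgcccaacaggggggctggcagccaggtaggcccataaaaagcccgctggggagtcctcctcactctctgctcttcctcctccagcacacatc
Aligned end to end, the Saa1 and Saa2 regions shared 238 identical bases with 11 mismatches and 2 gap bases (95.6% of aligned bases), while the other 5 pairs shared 54.0% to 62.8%. A match to TTGCNNAA was found in 4 of these 4 regions and in 9.56% of all 32851 RefSeq regions of the same length. It began 182 bases before the start in Saa1 and 183 in Saa2, at 216 in Lcn2 and, on the opposite strand, at 99 in Saa3. A STAT-type motif, TTCNNNGAA (7.02% of all regions), and the TATA box letters TATAAA (12.4%) were found in none of the 4, so no match overlapped another. The motifs were chosen with the levels known, and a match is a description of letters and not a binding site.

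Before the results, arrays that went against their labels were looked for. Over the 9329 genes, 14 of the 46 arrays, all tumors, correlated better on average with another group than with their own, among them all 5 Brca1-/-p53+/- tumors. MMTV-PymT was the nearest group for 6 of the 14, the clearest being Brca1-/-p53+/- 5 (mean r 0.915 with MMTV-PymT against 0.758 with its own group). The other 5 were MMTV-Wnt 2 (0.879 against 0.86), p53-/- 2 (0.897 against 0.89), MMTV-C-Myc 2 (0.885 against 0.88), MMTV-Wnt 4 (0.886 against 0.881) and MMTV-C-Myc 4 (0.887 against 0.886). Brca1-/-p53+/- 2 was nearest to FVB pregnant (0.812 against 0.728). Markers of epithelium (mean log2 of 8 genes, such as Krt8 and Epcam) were under 9 in 4 tumors, MMTV-Wnt 3 (6.93) and Brca1-/-p53+/- 2, 3 and 4 (8.62, 6.13 and 4.87), against 10.30 to 13.08 in the other arrays. Myc was higher in all 4 MMTV-C-Myc tumors (13.10 to 13.86) than in any other array (6.94 to 12.95), whereas Erbb2 in MMTV-H2N (7.42 to 8.07) and Brca1 in Brca1-/-p53+/- (5.71 to 8.69) overlapped with the rest. No pair of arrays was identical, and the closest pair correlated at 0.993.

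**Figure D1:**
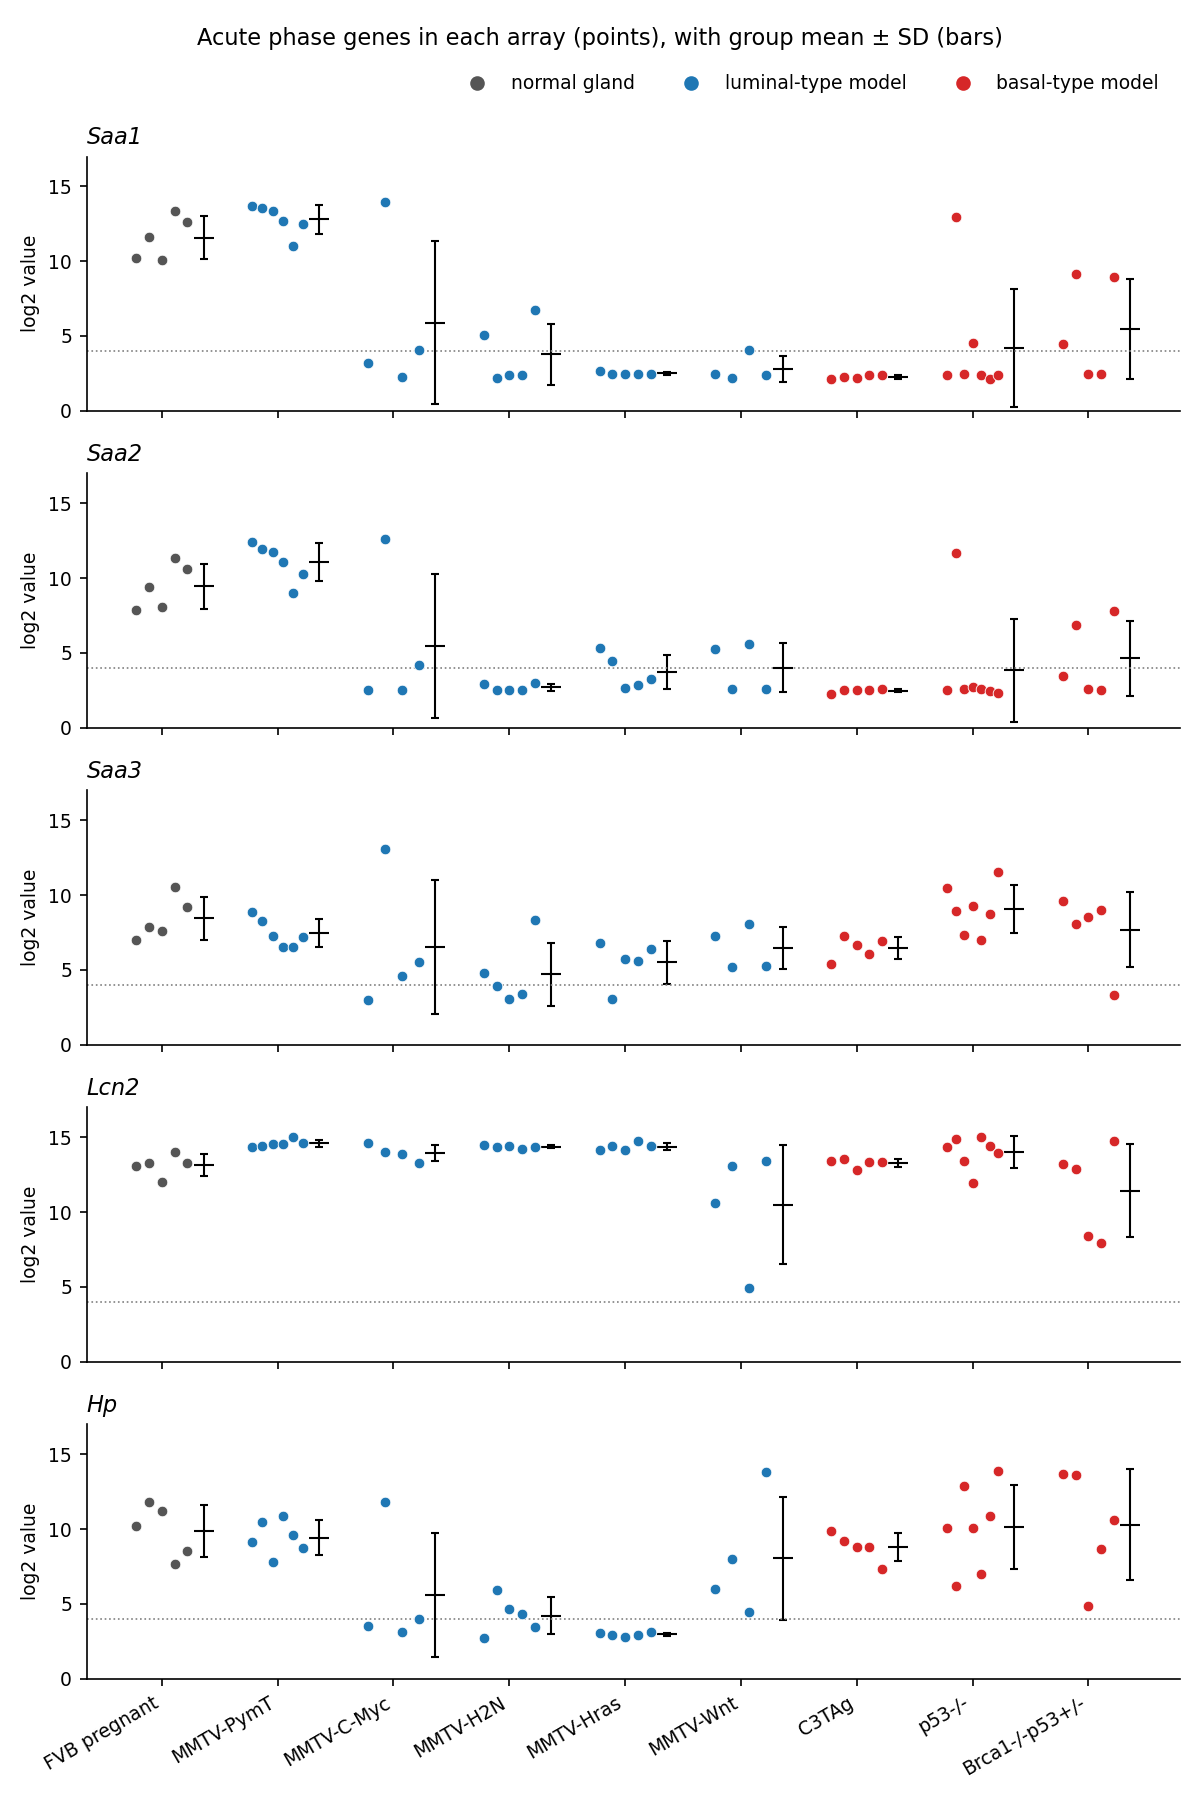
Log2 value (vertical axis) of Saa1, Saa2, Saa3, Lcn2 and Hp in each of the 46 arrays by group, with 1 point per array, bars for group mean and SD, and a dotted line at log2 4. Saa1 and Saa2 were high in all MMTV-PymT tumors and all normal glands and low in most other tumors, Lcn2 was high nearly everywhere, and Hp was lowest on average in MMTV-Hras.

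The circulating serum amyloid A genes were high in normal pregnant gland and in MMTV-PymT tumors and close to the array's floor in most other tumors. Saa1, read from probe set 1450788_at, stood at 10.18, 11.61, 10.07, 13.34 and 12.63 in the 5 normal glands, and its MMTV-PymT values ranged from 11.04 through a median of 13.03 to 13.67. The 6 MMTV-PymT tumors and the glands overlapped, and all 11 arrays were over 10. In C3TAg tumors Saa1 was 2.12, 2.25, 2.18, 2.39 and 2.42, and in MMTV-Hras tumors 2.66, 2.45, 2.46, 2.45 and 2.45, all at the floor of these GC-RMA data. Between these extremes lay models in which single tumors were high. MMTV-C-Myc tumors had 3.19, 13.98, 2.28 and 4.04, so that tumor 2 exceeded every normal gland while the other 3 were at or near the floor. In p53-/- tumors the lowest was 2.13, the median 2.41 and the highest 12.93, again a single tumor, number 2. Brca1-/-p53+/- tumors had 4.49, 9.13, 2.46, 2.43 and 8.91, with tumors 2 and 5 intermediate. MMTV-H2N tumors had 5.07, 2.21, 2.41, 2.40 and 6.72, and MMTV-Wnt tumors 2.48, 2.18, 4.05 and 2.39, none of them reaching the glands. The 4 tumors outside MMTV-PymT with Saa1 over 8 were MMTV-C-Myc 2, p53-/- 2 and Brca1-/-p53+/- 2 and 5, which are 4 of the 14 tumors that correlated better with another group, namely MMTV-PymT for 3 and FVB pregnant for 1. The other 3 tumors nearest to MMTV-PymT had low Saa1 (MMTV-C-Myc 4 at 4.04, MMTV-Wnt 2 at 2.18 and MMTV-Wnt 4 at 2.39).

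Ordered by mean, Saa1 was highest in MMTV-PymT (12.79 ± 0.98, SD, n = 6) and FVB pregnant (11.57 ± 1.45, n = 5), which did not differ beyond their spread. MMTV-C-Myc (5.87 ± 5.45, n = 4), Brca1-/-p53+/- (5.49 ± 3.34, n = 5), p53-/- (4.17 ± 3.95, n = 7), MMTV-H2N (3.76 ± 2.04, n = 5) and MMTV-Wnt (2.77 ± 0.86, n = 4) followed. The step down from FVB pregnant to MMTV-C-Myc was slightly larger than the larger SD, and the next 4 steps were smaller. MMTV-Hras (2.49 ± 0.09, n = 5) and C3TAg (2.27 ± 0.13, n = 5) came last, and their ranges did not overlap although both were at the floor. Saa1 was below the lowest normal gland in 33 of 41 tumors, above the highest gland in 4, and at or under log2 4 in 25. The other Saa1 probe set, 1419075_s_at, whose accession RefSeq now assigns to Saa2, gave 9.49, 10.69, 9.39, 12.71 and 12.07 in the glands, 14 in MMTV-C-Myc 2 and 13.08 in p53-/- 2.

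Saa2 followed the same pattern. In the glands it stood at 7.87, 9.39, 8.06, 11.33 and 10.60, and in MMTV-PymT it ranged from 9.03 through a median of 11.42 to 12.44. All 11 of these arrays were above the other tumors except for MMTV-C-Myc 2 (12.64) and p53-/- 2 (11.69), which lay among them. The other MMTV-C-Myc tumors had 2.53, 2.52 and 4.17, the other p53-/- tumors lay between 2.29 and 2.71, and Brca1-/-p53+/- tumors had 3.44, 6.86, 2.58, 2.52 and 7.80. C3TAg (2.48 ± 0.13, n = 5) and MMTV-H2N (2.70 ± 0.24, n = 5) were at the floor, and MMTV-Hras (3.72 ± 1.13, n = 5) and MMTV-Wnt (4.01 ± 1.64, n = 4) slightly above it. Apart from the step from MMTV-PymT (11.09 ± 1.27, n = 6) to FVB pregnant (9.45 ± 1.52, n = 5), no neighbours in the order of means differed by more than the larger SD. The Saa2 probe set, 1449326_x_at, is of a type that can bind related transcripts, so Saa1 RNA may contribute to its values.

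Both probe sets split the arrays the same way. Saa1 fell into 15 arrays from 8.91 to 13.98 and 31 arrays from 2.12 to 6.72, with none between. That split was drawn on Saa1 after the values were seen and pools groups, so the correlations within its sides are descriptions with no test. Among the 15 arrays Pearson r between Saa1 and Saa2 was 0.98 and Spearman rho 0.99. Among the 31 low arrays Pearson r was 0.25 and Spearman rho 0.73.

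Saa3, the form made mainly outside the liver, had another distribution, with no group uniformly at the floor. Normal glands had 6.98, 7.88, 7.60, 10.56 and 9.20. In p53-/- tumors it ranged from 7.02 through a median of 8.93 to 11.52, all overlapping with or above the glands. MMTV-PymT tumors ranged from 6.52 through 7.24 to 8.90, within or just under the range of the glands, in contrast to Saa1 and Saa2. MMTV-H2N tumors had 4.78, 3.91, 3.07, 3.38 and 8.34, and MMTV-Hras tumors 6.78, 3.05, 5.72, 5.62 and 6.38, so all MMTV-Hras tumors and 4 of 5 MMTV-H2N tumors lay below the lowest gland. MMTV-C-Myc tumors had 3.01, 13.07, 4.57 and 5.51, and tumor 2 held the highest Saa3 of all 46 arrays. C3TAg tumors had 5.39, 7.29, 6.67, 6.07 and 6.96, MMTV-Wnt tumors 7.25, 5.23, 8.05 and 5.28, and Brca1-/-p53+/- tumors 9.60, 8.04, 8.56, 8.98 and 3.34. The lone low Brca1-/-p53+/- tumor was number 5, which was high for Saa1. From the highest mean, p53-/- (9.05 ± 1.60, n = 7), to the lowest, MMTV-H2N (4.70 ± 2.14, n = 5), no neighbouring groups differed by more than the larger of their SDs.

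Lcn2 was the most evenly high of the 5 genes across groups. Normal glands had 13.08, 13.30, 12, 14.03 and 13.31, and Lcn2 lay above the highest gland in 23 of 41 tumors and below the lowest in 5. MMTV-H2N tumors had 14.52, 14.37, 14.40, 14.25 and 14.37, MMTV-Hras tumors 14.15, 14.40, 14.17, 14.73 and 14.43, and MMTV-PymT tumors ranged from 14.34 through 14.58 to 15.04, so these 3 models lay entirely above the glands. C3TAg tumors had 13.41, 13.56, 12.83, 13.37 and 13.35, and MMTV-C-Myc tumors 14.61, 14.04, 13.88 and 13.32. In p53-/- tumors Lcn2 ranged from 11.98 through 14.38 to 15.03. MMTV-Wnt (10.61, 13.09, 4.90 and 13.45) and Brca1-/-p53+/- (13.22, 12.91, 8.38, 7.94 and 14.78) were the only models with values under 11. In order, MMTV-PymT (14.60 ± 0.24, n = 6), MMTV-Hras (14.38 ± 0.23, n = 5), MMTV-H2N (14.38 ± 0.10, n = 5), p53-/- (14.01 ± 1.05, n = 7) and MMTV-C-Myc (13.96 ± 0.53, n = 4) led, and the only step between neighbours larger than an SD was from MMTV-C-Myc to C3TAg (13.30 ± 0.28, n = 5). The 3 lowest Lcn2 values were in MMTV-Wnt 3 and Brca1-/-p53+/- 4 and 3, which were also the arrays with the 3 lowest epithelial marker means and had fibroblast markers (mean of 8 genes) of 12.91, 12.23 and 12.89. Across all 46 arrays Lcn2 correlated with epithelial markers at r = 0.74 and with fibroblast markers at -0.64, as a description. The part of cell content in these values was not tested, and in bulk tissue fewer cells of a type and less RNA per cell cannot be told apart.

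Hp varied by model. Normal glands had 10.18, 11.80, 11.23, 7.69 and 8.55. MMTV-Hras tumors had 3.05, 2.91, 2.81, 2.91 and 3.11, all near the floor, and MMTV-H2N tumors 2.75, 5.94, 4.64, 4.30 and 3.47, so both models lay entirely below the glands. MMTV-C-Myc tumors had 3.51, 11.80, 3.10 and 4.02, with tumor 2 again the exception. C3TAg tumors had 9.86, 9.23, 8.81, 8.81 and 7.36, and MMTV-PymT tumors ranged from 7.78 through 9.38 to 10.85, both within or just under the range of the glands. Wide spreads were also seen in p53-/- (6.17 through 10.07 to 13.92), Brca1-/-p53+/- (13.66, 13.64, 4.89, 8.70 and 10.64) and MMTV-Wnt (6.00, 7.99, 4.43 and 13.80). Brca1-/-p53+/- (10.31 ± 3.69, n = 5), p53-/- (10.14 ± 2.82, n = 7), FVB pregnant (9.89 ± 1.74, n = 5), MMTV-PymT (9.44 ± 1.14, n = 6) and C3TAg (8.81 ± 0.92, n = 5) led the order with no step beyond an SD, and the step from MMTV-H2N (4.22 ± 1.21, n = 5) to MMTV-Hras (2.96 ± 0.12, n = 5) was the only one larger than an SD.

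The first comparison asked how tumors as a whole differ from normal gland, taking the mean of the 8 models with equal weight. All glands were from late-pregnant mice, so differences of tumor and of reproductive state cannot be told apart here. Saa1 fell by 6.61 on the log2 scale (SE 1.21, limma adjusted p = 2.64e-05) and Saa2 fell by 4.71 (SE 1.06, adjusted p = 0.00042), while Saa3 (-1.71, SE 0.92, adjusted p = 0.134), Lcn2 (0.18, SE 0.74, adjusted p = 0.861) and Hp (-2.45, SE 1.15, adjusted p = 0.0836) did not pass. Thus 2 of 5 genes were called lower and 0 of 5 higher. An unadjusted p under 0.05 was found for 3 of the 5 and for 4524 of all 9329 genes. Over all 9329 genes 17.1% were called lower and 24.2% higher, and the median difference was 0.20 against -2.45 for the 5 genes. The size of a fall to the floor depends on the floor: with values under log2 4 set to 4 the Saa1 difference was -5.63 and the Saa2 difference -3.85, both still called. Hp and Saa3 were called lower with FVB arrays alone (-3.37 and -2.26, adjusted p = 0.00728 and 0.0461). That setting leaves out p53-/- and Brca1-/-p53+/-, the models with the highest means of both genes. Both were also called lower without MMTV-C-Myc 2 (-2.71 and -1.98, adjusted p = 0.0317 and 0.0276), and Hp also without MMTV-Wnt 4 (-2.69, adjusted p = 0.037).

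Adipocyte markers moved in the same direction in this comparison. All 8 of 8 adipocyte markers tested were lower in tumors, among them Adipoq (-9.02, adjusted p = 1.71e-06) and Cidec (-8.44, adjusted p = 9.43e-10), and the mean of the 8 markers was 11.57 to 12.62 in glands and 2.85 to 12.86 in tumors, where Brca1-/-p53+/- 2 held the highest. MMTV-PymT tumors, high in Saa1, had adipocyte markers of only 2.98 to 6.65. Of the hepatocyte markers, Alb was over log2 4 in 2 arrays (at most 6.68) and Apob and Apoh in 0, and Cyp2e1, which adipose tissue also expresses, was the only called one of 3 tested (-8.04, adjusted p = 1.25e-07). The neutrophil markers tested were 6 genes, S100a8, S100a9, Ltf, Csf3r, Itgam and Mmp8. Among them Ltf, also counted with epithelial innate defence, averaged 12.73 in glands and 9.32 in tumors. Itgam (2.31 and 3.01) and Mmp8 (2.19 and 2.39) were near the floor. Of these markers 0 were called in either direction, and their mean was 5.06 to 5.94 in glands against 3.19 to 9.10 in tumors. Whether these cells account for any of the differences was not tested.

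**Figure D2:**
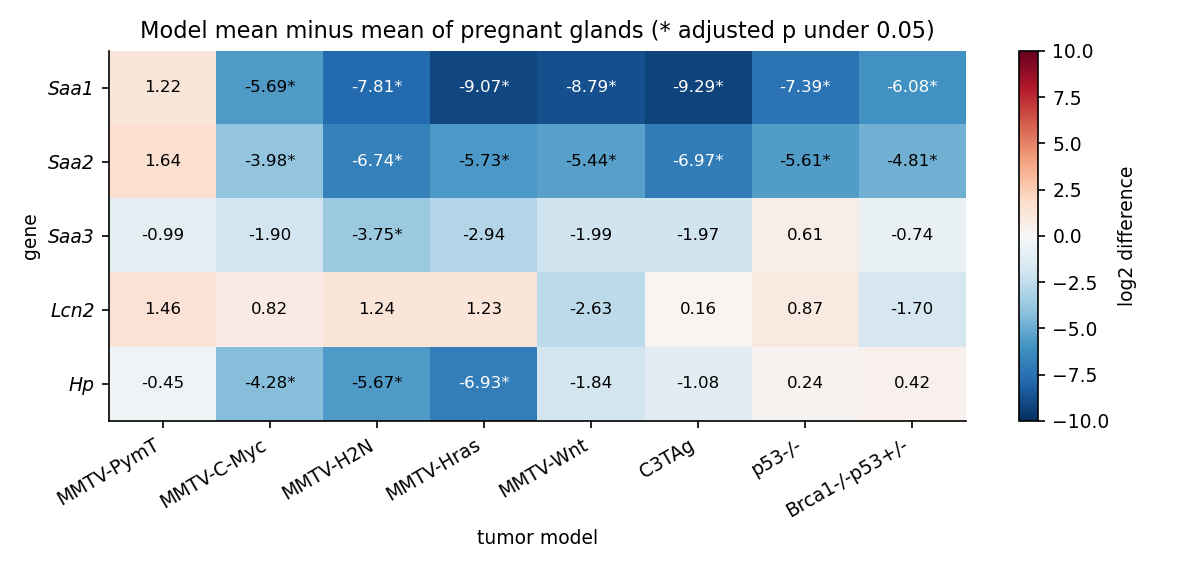
Log2 difference between each model mean and the mean of 5 pregnant glands (color, blue for lower) for Saa1, Saa2, Saa3, Lcn2 and Hp (rows) in the 8 models (columns), with an asterisk at adjusted p under 0.05. Saa1 and Saa2 were lower in 7 of 8 models, and no gene passed the test in MMTV-PymT.

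Each model was then set against the same 5 normal glands, so these comparisons share their controls. Saa1 was lower in 7 of 8 models, from MMTV-C-Myc (-5.69, SE 1.71, adjusted p = 0.00917) to C3TAg (-9.29, SE 1.61, adjusted p = 9.73e-06), and Saa2 in the same 7, from MMTV-C-Myc (-3.98, adjusted p = 0.038) to C3TAg (-6.97, adjusted p = 9.1e-05). Hp was lower in MMTV-Hras (-6.93, adjusted p = 0.00064), MMTV-H2N (-5.67, adjusted p = 0.00353) and MMTV-C-Myc (-4.28, adjusted p = 0.0391), and Saa3 in MMTV-H2N (-3.75, SE 1.22, adjusted p = 0.0148). Lcn2 was called in no model, although MMTV-H2N (1.24, SE 0.98), MMTV-Hras (1.23, SE 0.98) and MMTV-PymT (1.46, SE 0.94) lay entirely above the glands. These SEs rest on the spread of all groups, which for Lcn2 was widest in MMTV-Wnt (SD 3.95) and Brca1-/-p53+/- (SD 3.09). Called lower were 4 of 5 genes in MMTV-H2N (12.8% of all genes), 3 of 5 in MMTV-Hras (14%) and MMTV-C-Myc (14.6%), and 2 of 5 in C3TAg (18.5%), p53-/- (16.6%), MMTV-Wnt (13.3%) and Brca1-/-p53+/- (16.2%). In MMTV-PymT 0 of 5 genes were called by limma, where 32.6% of all genes were called in either direction. Also 0 of 5 had an unadjusted p under 0.05 in that model, a share not counted over all genes. There Saa1 differed by 1.22 (SE 1.54) and Saa2 by 1.64 (SE 1.35). The MMTV-C-Myc calls were the least firm: leaving out 1 array ended that of Saa1 in 1 of 46 cases (without MMTV-C-Myc 3, -4.50, adjusted p = 0.0635) those of Saa2 (highest adjusted p = 0.169) and Hp (highest adjusted p = 0.148) in 6 cases each, namely MMTV-C-Myc 1, 3 or 4 with FVB pregnant 2, 4 or 5 for Saa2 and FVB pregnant 1, 2 or 3 for Hp. The call of Saa3 in MMTV-H2N was lost without FVB pregnant 4 (-3.22, adjusted p = 0.0508).

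Among the tumors, all 5 genes differed between models by the moderated F test (adjusted p = 4.28e-06 for Saa1, 1.9e-05 for Saa2, 0.0262 for Saa3, 0.00252 for Lcn2 and 9.32e-05 for Hp). Since 74.5% of all genes passed that test, 5 of 5 is not far from what the array shows in general. Saa3 lost its call when any of 4 arrays was left out (MMTV-H2N 3 or 4, or p53-/- 1 or 7, adjusted p up to 0.0603). Against the mean of the other 7 models, MMTV-PymT stood highest for Saa1 (8.96, SE 1.13, adjusted p = 1.29e-06) and Saa2 (7.25, SE 0.99, adjusted p = 4.18e-06), 2 of 5 genes where 10.9% of all genes were called higher. These 2 calls held when each array was left out in turn, with differences of 8.78 to 9.34 and 6.98 to 7.67. Hp was lower in MMTV-Hras (-5.12, SE 1.15, adjusted p = 0.00126), where 14.8% of all genes were called lower, and in MMTV-H2N (-3.68, SE 1.15, adjusted p = 0.0169), where 9.07% were. It was higher in p53-/- (3.08, SE 1.00, adjusted p = 0.0302), together with Saa3 (2.65, SE 0.80, adjusted p = 0.0194), so 2 of 5 genes where 10.6% of all genes were called higher. In Brca1-/-p53+/- Hp was higher (3.27, SE 1.15, adjusted p = 0.0423, 6.75% called higher) and Lcn2 lower (-2.15, SE 0.74, adjusted p = 0.0385, 11.9% called lower). Lcn2 was also lower in MMTV-Wnt (-3.21, SE 0.82, adjusted p = 0.0113, 3.69% called lower). No other gene of the 5 was called in these 8 contrasts by limma. In C3TAg 0 of 5 were called and 2 had an unadjusted p under 0.05 (28.9% of all genes called in either direction), and in MMTV-C-Myc both counts were 0 (9.52%). These shares are of adjusted calls, and the unadjusted share over all genes was not counted for these contrasts.

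Several of these calls changed when tumors were left out. Without the 4 tumors whose epithelial markers averaged under log2 9, Lcn2 in Brca1-/-p53+/- turned to 0.14 above the other models (adjusted p = 0.941), and in MMTV-Wnt it was -1.71 (adjusted p = 0.00965). That exclusion took out the Brca1-/-p53+/- tumors with the lowest Lcn2 (8.38 and 7.94) and left only tumors 1 and 5 (13.22 and 14.78). Loss of the Brca1-/-p53+/- call was therefore fixed by the choice of tumors. Leaving out MMTV-Wnt 3 alone took the MMTV-Wnt difference to -1.34 (adjusted p = 0.323). Leaving out Brca1-/-p53+/- 3 or 4 took the Brca1-/-p53+/- difference to -1.38 or -1.27 (adjusted p = 0.214 and 0.268). Hp in Brca1-/-p53+/- lost its call without any of 6 arrays (MMTV-C-Myc 3 or 4, or Brca1-/-p53+/- 1, 2, 4 or 5, lowest difference 2.44), and in p53-/- without any of 5 (p53-/- 1, 3, 4, 6 or 7, lowest difference 2.45). Saa3 in p53-/- lost its call without p53-/- 1 or p53-/- 7 (lowest difference 2.24), and Hp in MMTV-H2N without MMTV-H2N 1 or 5 (highest adjusted p = 0.0623). In p53-/- tumors the neutrophil markers averaged 5.24 to 9.10, with a mean of 6.64. Brca1-/-p53+/- (mean 6.62) and MMTV-PymT (mean 6.38) had similar levels without a Saa3 call, and MMTV-H2N had the lowest (mean 4.04). Over all 46 arrays Saa3 and the mean of these markers, Ltf among them, correlated at r = 0.63, as a description. The part of neutrophils in the Saa3 difference was not tested.

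**Figure D3:**
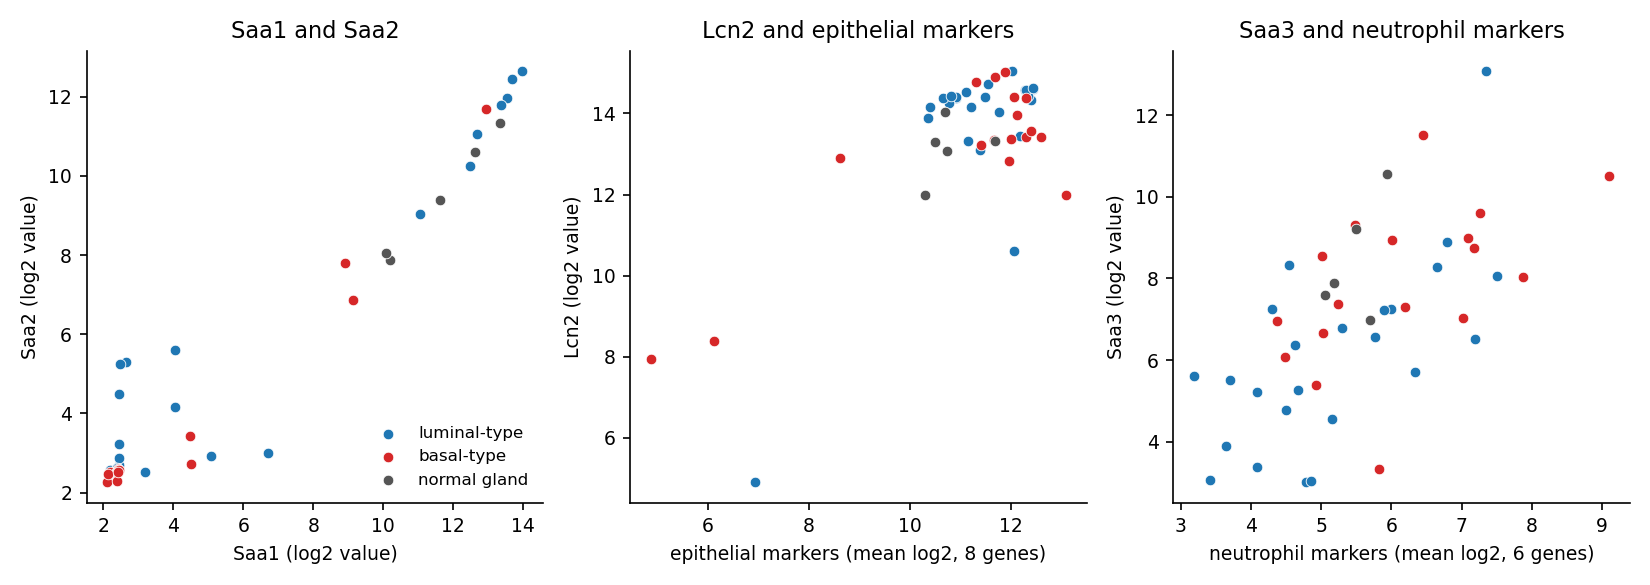
Values of 46 arrays, 1 point each, colored by class: Saa2 against Saa1, Lcn2 against the mean of 8 epithelial markers, and Saa3 against the mean of 6 neutrophil markers, all on log2 axes. Saa1 and Saa2 split into 15 high and 31 low arrays, and the 3 lowest Lcn2 values were in the 3 arrays with the lowest epithelial markers.

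The second comparison set the 17 basal-type tumors against the 24 luminal-type tumors. Hp was higher in basal-type tumors, with values from 4.89 through a median of 9.86 to 13.92 against 2.75 through 4.54 to 13.80, a difference of 3.66 (SE 0.95, adjusted p = 0.00412). Saa3 ranged from 3.34 through 8.04 to 11.52 in basal-type and from 3.01 through 6.05 to 13.07 in luminal-type tumors (1.74, SE 0.67, adjusted p = 0.0456). The Saa3 ranges overlapped widely, whereas for Hp the luminal-type median lay below the lowest basal-type tumor and the highest values of the classes were close. Saa1 (-1.94, SE 1.28, adjusted p = 0.257), Saa2 (-2.02, SE 1.04, adjusted p = 0.142) and Lcn2 (-0.67, SE 0.63, adjusted p = 0.44) did not pass. Called higher were 2 of 5 genes, where 15.9% of all genes were, and lower 0 of 5, where 12% were. Each tumor counted as an independent sample here. When tumors were grouped by model in a random block, which leaves 3 models against 5, neither Hp (3.69, adjusted p = 0.195) nor Saa3 (1.65, adjusted p = 0.463) was called, nor was either with FVB arrays alone, where C3TAg is the only basal-type model (Hp 2.68, adjusted p = 0.187, and Saa3 0.32, adjusted p = 0.842).

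The counts and median differences of the lists are read against those of all genes, of which 24.2% were called higher and 17.1% lower between tumors and gland (median 0.20), and 15.9% higher and 12% lower between classes (median 0.06). All 20 list and marker genes given values below for the class comparison lost the call when the model was a random block. Further acute phase genes and the signaling genes around them were counted from lists, in which a gene needs a single-gene probe set that passed the filter. Of 18 other positive acute phase genes, 2 were higher and 3 lower in tumors than in normal gland (median -0.70), which is no more than the share over all genes in either direction. Orm1, which encodes the acute phase protein orosomucoid, fell by 7.64 (SE 0.70, adjusted p = 3.25e-11) from 10.69 in glands to 3.06 in tumors, and the metalloreductase gene Steap4 fell by 2.78 (adjusted p = 0.00587). The 2 called higher were A2m (2.76, adjusted p = 0.00126) and Il1rn (2.53, adjusted p = 0.00611). Members that did not pass included the lipopolysaccharide binding protein gene Lbp (-0.59, adjusted p = 0.626), the ceruloplasmin gene Cp (-0.94, adjusted p = 0.106) and Lrg1 (-1.34, adjusted p = 0.192). Between classes 2 of the 18 rose and 1 fell in basal-type tumors (median 0.47), where the interleukin-1 receptor antagonist gene Il1rn rose by 2.29 (adjusted p = 0.0124) and A2m, which encodes the protease inhibitor alpha-2-macroglobulin, fell by 4.06 (adjusted p = 5.97e-05). Of 2 negative acute phase genes tested, Rbp4, which encodes the retinol carrier of plasma and is also expressed by adipocytes, fell by 7.37 in tumors (adjusted p = 1.15e-06).

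Ligands and receptors of the inducing cytokines came next. Of 8 cytokine ligand genes, 1 was higher and 0 lower in tumors (Il1b, interleukin-1 beta, 1.63, adjusted p = 0.0203, lost without FVB pregnant 1 or 3 at up to 0.0531), and 3 were higher and 0 lower in the basal-type class, among them Lif (2.25, adjusted p = 0.000501) and Il1b (1.99, adjusted p = 0.00252). Il6 itself was near the floor, with class means of 2.88 (basal-type) and 2.57 (luminal-type). Of 11 receptor genes, 4 were higher and 3 lower in tumors, where 24.2% and 17.1% of all genes were, with the interleukin-1 co-receptor gene Il1rap up by 2.29 (adjusted p = 0.00298) and the interleukin-6 receptor gene Il6ra down (-2.40, adjusted p = 4.14e-06). The medians were 0.43 and 0.83 for ligands and 0.51 and 0.16 for receptors in the 2 comparisons. In basal-type tumors 3 of 11 receptors were higher, with Tnfrsf1b (2.02, adjusted p = 1.1e-05), a TNF receptor gene, and Il1r1 (1.83, adjusted p = 0.000154) the largest.

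Of 16 signal transducers and transcription factors, 5 were higher and 2 lower in tumors, near the shares over all genes. Ikbkb, a kinase of the NF-kappaB pathway, rose by 1.03 (adjusted p = 0.000229), and Cebpa, which encodes a C/EBP factor of liver and fat, fell by 2.94 (adjusted p = 1.04e-05), while Cebpb (0.14, adjusted p = 0.671) and Cebpd (0.70, adjusted p = 0.432) did not pass. In basal-type tumors 4 of 16 were higher (15.9% of all genes) and none lower, led by the NF-kappaB subunit genes Relb (2.52, adjusted p = 0.00013) and Nfkb2 (1.7, adjusted p = 0.00254), calls that were lost with the random block. Of 7 feedback inhibitors 1 was higher in tumors, Socs3, the inhibitor of interleukin-6 family signaling (1.62, adjusted p = 0.013, lost without FVB pregnant 2 at 0.0662), and 4 were higher in basal-type tumors, including Socs3 (2.15, adjusted p = 0.00299) and Nfkbie (2.08, adjusted p = 0.000434). The medians were 0.47 and 0.12 for transducers and 0.48 and 0.85 for inhibitors.

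Among 10 receptors and partners of the 5 proteins, 1 was higher and 4 lower in tumors. The fall was largest for the scavenger receptor gene Cd36, which is abundant in adipocytes (-7.19, adjusted p = 1.99e-07), and was 2.22 for Cd163 (adjusted p = 0.00248), the macrophage receptor for haptoglobin bound to hemoglobin. In basal-type tumors 5 were higher and 1 lower, with Mmp9, the protease that lipocalin 2 binds, up by 2.73 (adjusted p = 0.00793) and Lrp1 up by 2.00 (adjusted p = 0.00308). Of 13 genes of epithelial innate defence and milk, 3 were higher and 5 lower in tumors, with Csn2, beta-casein (-6.80, adjusted p = 0.00113), and the defensin gene Defb1 (-6.76, adjusted p = 1.55e-16) falling furthest. In basal-type tumors 4 were higher, led by Wfdc2, a secreted protease inhibitor (3.86, adjusted p = 0.000919), and 1 lower, the lactoperoxidase gene Lpo (-2.74, adjusted p = 0.0492, a call lost in 24 of 46 cases when 1 array was left out). The medians were -0.57 and 0.79 for receptors and partners and -0.61 and 0.23 for innate defence. Of the fibroblast markers, 6 of 8 were higher in basal-type tumors (Col1a1 by 2.97, adjusted p = 0.00174, and Pdgfra by 2.49, adjusted p = 0.00337). Macrophage markers had 2 of 13 higher (Fcgr1 by 1.84 and C1qc by 1.12, a call lost in 29 of 46 cases when 1 array was left out) neutrophil markers 1 of 6 (S100a9 by 2.66, adjusted p = 0.012) and endothelial markers 1 of 6 (Kdr by 1.25, lost without p53-/- 4 at adjusted p = 0.0510), while 0 of 8 adipocyte, 0 of 8 epithelial, 0 of 3 hepatocyte and 0 of 3 lymphocyte markers were called. Between tumors and gland, 5 macrophage markers were higher and 1 lower of 13 (Cd68 by 2.90 and Fcgr1 by 2.63), 2 epithelial markers were higher and 1 lower of 8 (Krt18 by 1.57 and Krt19 by -3.55, lost without any 1 of the 5 glands at up to 0.0699), 3 of 8 fibroblast markers were lower (Dcn by -3.81 and Lum by -3.22), 2 of 6 endothelial markers were lower (Tek by -3.48 and Cdh5 by -2) and 0 of 3 lymphocyte markers were called. The part of these cells was not tested.

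**Figure D4:**
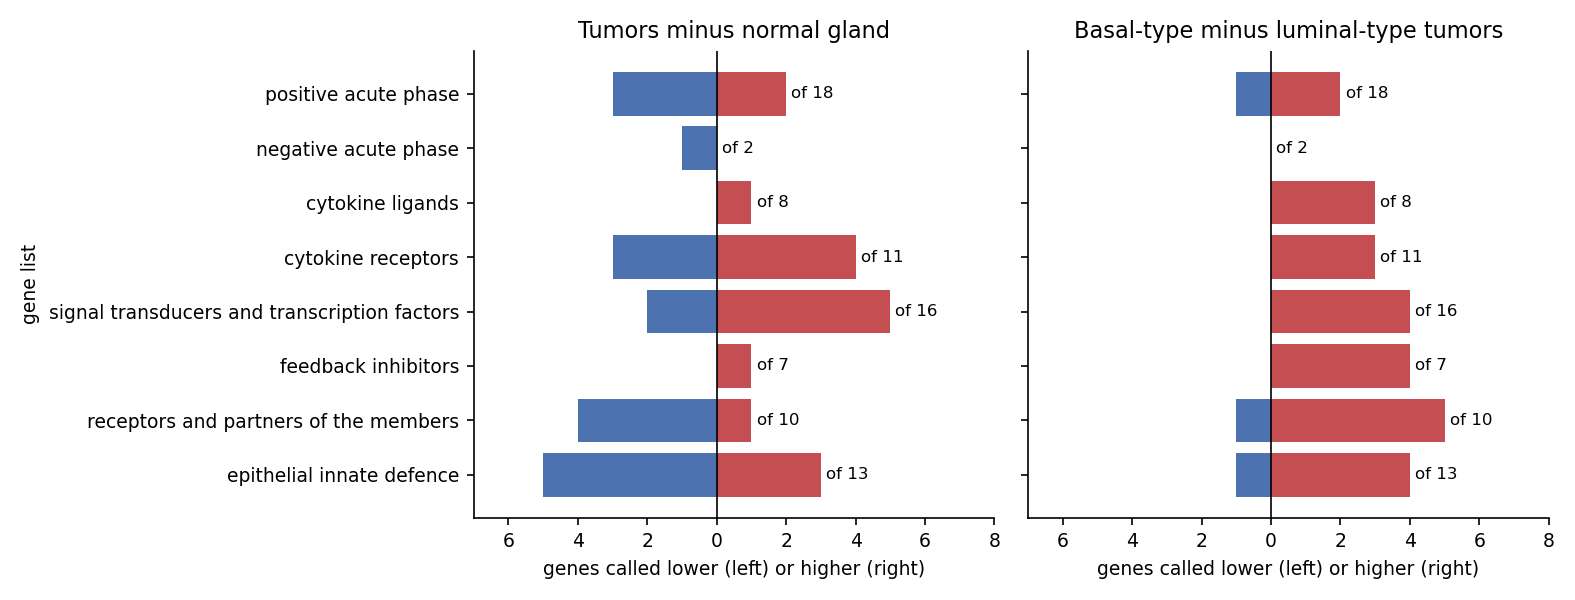
Number of genes called higher (red, right) or lower (blue, left) at adjusted p under 0.05 in 8 lists of acute phase and related signaling genes, with the number tested beside each bar, for tumors minus normal gland and for basal-type minus luminal-type tumors. Feedback inhibitors had 4 of 7 genes higher in basal-type tumors, where 15.9% of all genes were and where a random block for model left 49 genes called in all, and epithelial innate defence had 5 of 13 lower in tumors than in gland, where 17.1% of all genes were.

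Covariation within groups asked whether 2 of the 5 genes are high in the same arrays once the group means are removed. Of 10 pairs, only Saa1 with Saa2 passed (Pearson r = 0.94, Spearman rho = 0.89, permutation p = 1e-05, the smallest that 100000 permutations can give, and adjusted p = 0.0001, n = 46 arrays, and r = 0.85 without MMTV-C-Myc 2 and p53-/- 2). Since the Saa2 probe set can bind related transcripts, both readings may hold Saa1 RNA. This pair is therefore no test of 2 separately measured genes. The next pairs were Saa1 with Saa3 (r = 0.40, rho = 0.36, permutation p = 0.11 and 0.0347, adjusted p = 0.284 and 0.171) and Lcn2 with Hp (r = 0.40, rho = 0.14, permutation p = 0.113 and 0.437, adjusted p = 0.284 and 0.728). Without MMTV-C-Myc 2 and p53-/- 2 the former fell to r = 0.23. Saa3 and Lcn2 had the only negative r (-0.28, permutation p = 0.0686, adjusted p = 0.284). Within groups, arrays high in Saa1 or Saa2 were not detectably higher in Hp (r = 0.14 and 0.07, adjusted p = 0.595 and 0.746).

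The genes with the most similar pattern differed between members. Over the 46 arrays, Saa1 was most like Wap, the whey acidic milk protein (Pearson r = 0.812), followed by BC016548 (0.773) and Slc25a10, a mitochondrial dicarboxylate carrier (0.766), and Saa2 was most like Wap (0.781), BC016548 (0.779) and Timd2 (0.745). Wap stood at 15.48 to 15.66 in glands, 9.58 to 13.01 in MMTV-PymT and 14.63 in MMTV-C-Myc 2, but only at 7.80 in p53-/- 2, where Saa1 was 12.93. Saa3 was most like Fgl2 (0.755), Mndal (0.652) and the metallothionein Mt2 (0.613). Lcn2 was most like Map7 (0.896), Tmc4 (0.889) and the epithelial protease inhibitor Spint2 (0.883), and Hp most like the carbonyl reductase Cbr2 (0.733), Steap4 (0.73) and Itih5 (0.66). The mean z-score of the 5 genes was most like Slc25a10 (0.754), Fcgbp (0.75), Lrg1 (0.747), Bcl2l15 (0.71) and Lipa (0.695), with Lrg1 averaging 12.34 in MMTV-PymT, 9.64 in glands and 7.85 in the other tumors. These correlations span group means and are descriptions of likeness only.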

How the data were processed

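The authors extracted total RNA from tumors and glands, labeled it with an Affymetrix One Cycle kit, hybridized it to mouse genome arrays and deposited GC-RMA values from Partek on the log2 scale. GC-RMA corrects background by probe GC content and pulls unexpressed probe sets to about 2 on that scale. Per the methods, probe sets with too few MAS5 present or marginal calls had been removed. Software versions, scan dates and batches are not given in the sources used here.

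The deposited log2 table held 18586 probe sets and 46 arrays, with array medians of 6.48 to 7.48. Arrays have no read depth, and 4 to 7 arrays per group limit the precision. Of the probe sets, 16962 were annotated to 1 gene, 569 to several and 1055 to none, and symbols were updated by gene ID for 16941. Probe sets over log2 4 in at least 3 arrays were kept, and each gene was represented by its probe set of highest mean, for 9329 genes. Sample titles gave the groups. Fits used lmFit and eBayes of limma 3.58.1 (statmod 1.5.0) in R 4.3.3, with all 9 groups, or with 41 tumors for the classes, and Benjamini-Hochberg adjustment over all genes. A gene was called at adjusted p under 0.05. The fits were first tested on simulated data. Covariation used deviations from group means, 100000 permutations within groups and adjustment over 10 pairs, in Python 3.11.15 with numpy.

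Alternatives were quantile normalization, median centring, no filter, a floor at log2 4, the mean of probe sets, FVB arrays alone, another eBayes prior, a replicate block, the model as a random block, equal weights for models and each array left out. Exclusions of 14 and of 4 tumors were added after seeing the data. The 5 genes, the lists and the tests were chosen with earlier results of these data known. Named genes were the 5, the 2 called list genes with the largest difference per list and comparison, and the most similar genes by correlation. Myc, Erbb2, Brca1, Il6, Lbp, Cp, Lrg1, Cebpb and Cebpd, and the reading of Alb, Apob and Apoh, were named outside that rule, after their values were seen. The same holds for A2m and Il1rn between tumors and gland, and for Ltf, Itgam, Mmp8 and the other neutrophil markers named. Hp has no upstream sequence shown. Some altered genes are not reported here.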

Additional observations from a re-analysis of the deposited data

Results flagged for a closer look

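In 10 of 45 sets of 1 gene in 1 group, a single array lay farther from the rest than Dixon's test allows. Chance gives about 1 in 20 for independent sets of normally distributed values. These sets share arrays, Saa1 and Saa2 may hold the same RNA and some values are at the floor, so the count is no test against that rate. MMTV-C-Myc 2 stood above its group for Saa1 (13.98, next 4.04), Saa2 (12.64, next 4.17) and Hp (11.80, next 4.02), and p53-/- 2 for Saa1 (12.93, next 4.51) and Saa2 (11.69, next 2.71). Brca1-/-p53+/- 5 was low for Saa3 (3.34, next 8.04) and C3TAg 3 for Lcn2 (12.83, next 13.35). Small steps at the floor were Saa1 in MMTV-Hras 1 (2.66, next 2.46) and Saa2 in C3TAg 1 (2.26, next 2.52). Saa1 in MMTV-Wnt 3 was a larger step to a low value (4.05, next 2.48), and the other Saa1 probe set read 5.90 there (next 2.29).

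All 5 genes differed among the 8 models by the moderated F test of limma, with adjusted p = 4.28e-06 for Saa1, 1.9e-05 for Saa2, 0.0262 for Saa3, 0.00252 for Lcn2 and 9.32e-05 for Hp, as did 74.5% of all genes.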

How the results depend on the processing

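The falls of Saa1 (-6.99 to -6.17) and Saa2 (-5.10 to -4.24) in tumors and the higher Hp of basal-type tumors (3.41 to 4.00) kept their calls when any 1 array was left out. Saa3 between classes (1.74) was the least stable: it lost its call with quantile normalization (1.60, adjusted p = 0.0669), median centring (1.65, 0.0609), no filter (1.74, 0.0528), FVB arrays alone (0.32, 0.842), the model as a random block (1.65, 0.463), and, in exclusions chosen after seeing the data, without the 14 tumors closer to another group (1.62, 0.0724) or the 4 with low epithelial markers (1.69, 0.0789), and in 22 of 46 cases of leaving out 1 array (1.52 to 2.04). Hp between classes lost its call with FVB arrays alone (2.68, 0.187) and the random block (3.69, 0.195), which left 49 genes called in all (19 higher and 30 lower) against 2607.

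Between tumors and gland, Saa3 and Hp gained a call with FVB arrays alone (-2.26 and -3.37, adjusted p = 0.0461 and 0.00728). That setting leaves out p53-/- and Brca1-/-p53+/-, the models with the highest means of Saa3 (9.05 and 7.70) and Hp (10.14 and 10.31). Without the 14 tumors the differences were -2.31 and -3.44. Those 14 include the tumors with the highest Saa3 (MMTV-C-Myc 2, 13.07) and the highest Hp (p53-/- 7, 13.92). Leaving out 1 array gave -2.08 to -1.18 for Saa3, called without MMTV-C-Myc 2, and -3.00 to -1.97 for Hp, called without MMTV-C-Myc 2 or MMTV-Wnt 4. Lcn2, never called, turned sign with median centring (-0.02) and without FVB pregnant 3 (range -0.11 to 0.41). Without the 14 tumors Saa1 and Saa2 were called lower in basal-type tumors (-4.02 and -3.56, adjusted p = 0.038 and 0.0225), but the exclusion takes out all 3 basal-type tumors with Saa1 over 8. Calls of the 5 genes against the other models went from 9 to 17, a count not comparable with the first, since no Brca1-/-p53+/- tumor and only 1 tumor each of MMTV-C-Myc and MMTV-Wnt remained, assumed to vary like the other groups. Lcn2 in Brca1-/-p53+/- turned to 0.14 without the 4 tumors with low epithelial markers, an exclusion that left only Brca1-/-p53+/- 1 and 5 in that model. Saa3 among models had adjusted p = 0.000696 to 0.0603 over the arrays left out. With values under log2 4 set to 4, Hp lost its call in MMTV-C-Myc against gland (-3.93, 0.0545) and in Brca1-/-p53+/- against the other models (3.03, 0.0572). The causes were not tested.

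The replicate numbers did not pair the arrays (mean correlation of same-numbered deviations 0.014 over 166 pairs). With the replicate block Saa3 between classes lost its call (1.53, adjusted p = 0.0964).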

Other observations

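The milk protein gene Csn2, beta-casein, did not follow Saa1 in every tumor. In MMTV-H2N tumors Csn2 stood at 13.14 to 14.42, near the 15.21 to 15.50 of the glands, while Saa1 did not exceed 6.72. Wap, the gene most like Saa1, was only 6.76 to 8.80 in MMTV-H2N, against 15.48 to 15.66 in glands. Of the 4 tumors outside MMTV-PymT with Saa1 over 8, Csn2 was 15.12 in MMTV-C-Myc 2, 14.48 in Brca1-/-p53+/- 2 and 11.84 in p53-/- 2, but 2.37 in Brca1-/-p53+/- 5, where Saa1 was 8.91. In the same order Wap was 14.63, 12.31, 7.80 and 8.56, with a median of 3.57 over the Brca1-/-p53+/- tumors.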
